A study of Sus scrofa with 61 samples.

Results

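The genes of the insulin-like growth factor (IGF) and growth hormone axis IGF1, IGF2, GHR, IGFBP2 and IGFBP3 were followed through liver development in LP offspring. Their probe-sets, groups of short probes that an array reads as 1 value, were taken by gene symbol from the annotation of the array, and the rule used no measured value, although the genes were picked with earlier results of these data known. Of the 6765 genes with a probe-set, 4 were of this axis, and they had 18 of the 23999 probe-sets without controls, with 3 for IGF1, 13 for IGF2, 1 for GHR and 1 for IGFBP2. IGFBP3 had no probe-set under its symbol in the annotation used and was not analysed here.

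The hormones of this axis link nutrition to growth. Growth hormone from the pituitary binds its receptor GHR on hepatocytes, and JAK2 and STAT5 then carry the signal to the IGF1 gene, so that the postnatal liver becomes the main source of circulating IGF1. IGF2 is the IGF of fetal growth, is imprinted, and is transcribed from several promoters into transcripts that share their coding exons, while the IGF-binding proteins carry both hormones in plasma.

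Expression was measured in whole liver of German Landrace offspring on 61 Affymetrix porcine arrays with 1 animal each, at 94 dpc (days post conception, n = 16) and at 1, 28 and 188 dpn (days post natum, n = 14, 15 and 16). All mothers had received the gestational low protein diet, and arrays of offspring of an adequate protein diet were not analysed here, so the values describe LP offspring over age and hold no effect of diet. The 94 dpc fetuses came from Caesarean sections and the later animals from farrowed litters, so that in period I (94 dpc to 1 dpn) age and the experiment the animals came from cannot be told apart. Pigs of 28 and 188 dpn were sampled after an overnight fast, which is not stated for 1 dpn, so stage and feeding cannot be told apart in period II (1 to 28 dpn), and period III runs from 28 to 188 dpn. Only piglets kept beyond 1 dpn were raised by foster sows on a standard diet, and their males were castrated. These steps and stage cannot be told apart in period II either. Sibling pairs were chosen to differ in weight at 94 dpc and 1 dpn only. The study sampled siblings, which the labels do not identify. Siblings within a stage can make p-values too small. Piglets of a litter were also spread over 1, 28 and 188 dpn, which can make p-values of periods II and III too large.

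Levels are log2 signal intensities, in which a difference of 1 is a doubling, and they are compared between stages within a probe-set, never between probe-sets. Tests ran on probe-sets that exceeded the array median in 50% or more of the animals of either stage, with limma over all such probe-sets, and a change was called where P and the Storey q-value were both at most 0.05. The median change of all probe-sets tested was -0.16, -0.14 and -0.14 in periods I, II and III on the deposited global scaling. Of all calls, 38.5%, 41.2% and 33.9% were higher at the later stage, and 50.8%, 67.6% and 59.5% after the median of each array was subtracted, which moved the median change to 0.02, 0.27 and 0.07. Array medians fell with age, with a median signal of 167, 150, 118 and 102 at 94 dpc and 1, 28 and 188 dpn. Where signals were raised to the array median as a floor, the drop of the floor itself adds to falls and takes from rises. Arrays of a stage correlated with each other at 0.859 to 0.907 on average, and 9 arrays, 2, 1, 2 and 4 by stage, had an outlying 3' to 5' difference in a control gene. Hepatocyte markers such as ALB and APOA1 summed to a signal of 312889 to 699856 over all arrays, with 10 of 10 measured and none at 0.

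Over periods I and II the ligands went opposite ways, IGF2 falling while GHR and then IGF1 rose, and IGFBP2 fell in period I. In period I, 13 of the 18 probe-sets were tested, and 1 rose (GHR) and 10 fell (9 of IGF2 and IGFBP2), where 26.1% of all probe-sets tested rose and 41.6% fell. In period II, 15 were tested, and 4 rose (2 of IGF1, GHR and 1 of IGF2, which was not called with the array median as floor) and 10 fell (all of IGF2), beside 29.0% and 41.4% of all probe-sets tested. In period III, 12 were tested, and 3 rose (all of IGF2) and 0 fell, beside 18.3% and 35.7%. The number that rose in period III depended on the processing and was 6 after quantile normalization, 7 after subtraction of the array median, 5 with array weights and 7 without the arrays with an outlying control gene. The limma fit gave no member a lower value at an unadjusted p at or below 0.05 in period III either, and 1 fell without the intensity filter. The median change of the tested member probe-sets was -0.65, -1.50 and 0.20 in the 3 periods. These medians mainly reflect IGF2, which supplied 10 of 13, 11 of 15 and 8 of 12 of the probe-sets tested. By gene the median in period II was 2.08 for IGF1, -3.28 for IGF2, 1.02 for GHR and -0.21 for IGFBP2.

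**Figure D1:**
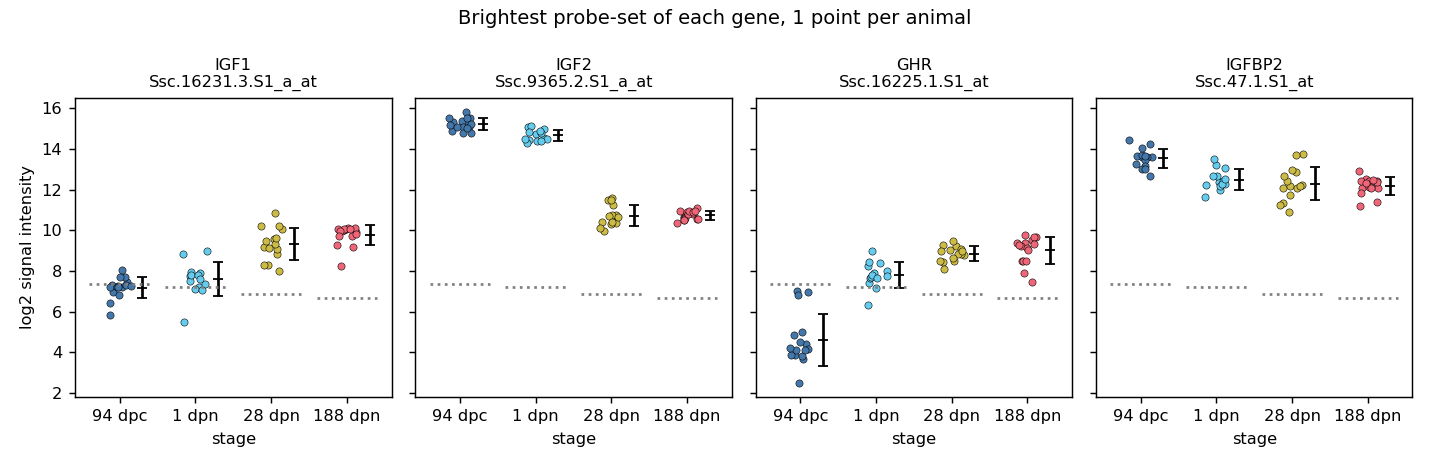
Log2 signal intensity of the brightest probe-set of IGF1, IGF2, GHR and IGFBP2 at 94 dpc (n = 16), 1 dpn (n = 14), 28 dpn (n = 15) and 188 dpn (n = 16), with 1 point per animal, the mean and SD beside the points, and the median over the stage of the array medians as a dotted line. IGF2 dropped between 1 and 28 dpn with no overlap, GHR lay below the array median in all 94 dpc fetuses, and IGF1 lay above it in all animals of 28 and 188 dpn.

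IGF1 encodes the IGF that mediates much of postnatal growth. At its brightest probe-set, Ssc.16231.3.S1_a_at, the lowest, median and highest values were 5.83, 7.23 and 8.04 at 94 dpc and 5.50, 7.67 and 9.00 at 1 dpn. They were 7.98, 9.32 and 10.85 at 28 dpn and 8.26, 9.97 and 10.13 at 188 dpn. Most fetuses and newborns therefore lay below most older pigs, with some overlap between 1 and 28 dpn. IGF1 rose in period II by 1.75 (SE 0.29, q = 6.66e-07, limma), a 3.35-fold increase. Between 94 dpc and 1 dpn the difference was 0.41 (SE 0.24, P = 0.0918, 95% interval -0.07 to 0.89) and between 28 and 188 dpn it was 0.43 (SE 0.22, P = 0.0644, interval -0.03 to 0.89), and neither was called. Both differences were called after quantile normalization (0.58 and 0.46), after subtraction of the array median (0.56 and 0.59) and with array weights (0.41 and 0.47). In period III the rise was also called, at 0.54, when arrays with such an outlying control gene were left out. The order of the means was thus 94 dpc (7.18), 1 dpn (7.60), 28 dpn (9.34) and 188 dpn (9.77), and only the step between 1 and 28 dpn was called without array weights, rescaling or leaving out arrays.

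The other probe-sets of IGF1 did not all follow. Ssc.16231.1.S1_a_at had means of 4.82 ± 1.69 (SD, n = 16), 6.08 ± 1.47 (n = 14), 8.51 ± 0.79 (n = 15) and 8.80 ± 0.53 (n = 16) in order of age. It was above the array median in 0 of 16 fetuses and 2 of 14 newborns, and in all animals of the later stages. Its rise in period II was 2.42 (SE 0.41, q = 1.03e-06), or 1.19 (q = 7.26e-07) when signals below the array median were set to that median. Ssc.16231.2.A1_a_at passed the filter in no period, with means from 5.80 to 6.33. Within stages, the deviations of these probe-sets correlated with those of the brightest one at r = 0.29 and -0.05 over the 61 arrays, given as a description.

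From 94 dpc to 188 dpn, IGF1 rose by 2.59 (SE 0.17, q = 3.46e-16) at its brightest probe-set, with the lowest value at 188 dpn above the highest at 94 dpc. Over this whole span 14 member probe-sets were tested, of which 4 rose (2 of IGF1, GHR and 1 of IGF2) and 10 fell (9 of IGF2 and IGFBP2), beside 28.6% and 55.0% of all probe-sets tested. Among the falls of IGF2, that of Ssc.20525.1.S1_at (-0.95) lost its call after subtraction of the array median (-0.30). Stages did not overlap at 12 of the 14, where 26.4% of all probe-sets tested had no overlap. Of the 12, 9 were of IGF2, 2 of IGF1 and 1 of GHR, while IGFBP2 overlapped. Probe-sets of 1 gene read the same animals, so these counts are not of independent members.

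IGF2 encodes the fetal IGF. At its brightest probe-set, Ssc.9365.2.S1_a_at, the lowest, median and highest values were 14.77, 15.20 and 15.84 at 94 dpc and 14.28, 14.64 and 15.14 at 1 dpn. They were 9.98, 10.69 and 11.57 at 28 dpn and 10.37, 10.75 and 11.11 at 188 dpn. Every newborn lay well above every pig of 28 dpn, and the values of 28 and 188 dpn lay within each other. The level fell by 0.55 in period I (SE 0.11, q = 1.23e-05) and by 3.94 in period II (SE 0.15, q = 2.28e-20), a 15.4-fold decrease. In period III the difference was 0.01 (SE 0.14, q = 0.271, 95% interval -0.27 to 0.29). The period I fall was -0.22 after quantile normalization, where the probe-set no longer varied enough to be tested.

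Of the 13 probe-sets of IGF2, 10 were tested in period I, where 9 fell by 0.40 to 1.04. Of these, Ssc.20525.1.S1_at and Ssc.9365.1.S1_at were not called after subtraction of the array median (-0.25 and -0.26). The exception was Ssc.9365.7.A1_x_at, at 0.40 (SE 0.28, P = 0.167). In period II, 11 were tested and 10 fell. Ssc.9365.6.S1_x_at fell the most, from 12.28 ± 0.45 (SD, n = 14) to 8.17 ± 0.94 (n = 15), a change of -4.11 (SE 0.26, q = 6.81e-15). Stages did not overlap at 8 of the 15 member probe-sets tested in period II, all 8 of IGF2, beside 9.91% of all probe-sets tested. The 8 include Ssc.9365.4.S1_a_at, which rose. That probe-set, Ssc.9365.6.A1_a_at and Ssc.9365.6.A1_x_at passed the filter only through the stage where they were high. For these the filter itself favours a lack of overlap. In period I this held for 1 of 13 (Ssc.9365.3.S1_x_at of IGF2), beside 7.72%, and in period III for 0 of 12, beside 1.37%.

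The fall in period II was not equally large at all IGF2 probe-sets. Ssc.9365.2.S1_a_at, Ssc.9365.3.S1_a_at, Ssc.9365.3.S1_x_at, Ssc.9365.5.S1_a_at and Ssc.9365.6.S1_x_at fell by 3.28 to 4.11. Ssc.9365.6.A1_a_at, Ssc.9365.6.A1_x_at and Ssc.9365.7.A1_x_at fell by 3.31, 2.25 and 1.28. With the array median as floor the changes were -1.20, -1.43 and -0.58, all still called. These probe-sets exceeded that median in 0, 1 and 2 of 15 pigs of 28 dpn, so part of the floored falls is the drop of the floor itself. After subtraction of the array median the changes were -2.96, -1.90 and -0.94, all called. Ssc.20525.1.S1_at, whose identifier carries another cluster number, fell by 1.16 (SE 0.20, q = 1.27e-06), from 12.74 ± 0.53 (n = 14) to 11.59 ± 0.57 (n = 15), and Ssc.9365.1.S1_at fell by 1.50 (SE 0.17, q = 1.02e-09). Both then rose in period III, Ssc.20525.1.S1_at by 0.60 (SE 0.15, q = 0.000391) to 12.19 ± 0.21 (n = 16) and Ssc.9365.1.S1_at by 0.54 (SE 0.14, q = 0.000615) to 7.71 ± 0.27 (n = 16). The difference between probe-sets was not tested. Over the 61 arrays the within-stage deviations of Ssc.20525.1.S1_at and of the brightest probe-set correlated at r = 0.72.

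Ssc.9365.4.S1_a_at went the other way. Its lowest, median and highest values were 2.67, 3.42 and 4.17 at 94 dpc and 2.67, 3.34 and 3.86 at 1 dpn, below the array median on every array of both stages. They were 4.47, 7.36 and 7.94 at 28 dpn and 6.51, 8.01 and 8.88 at 188 dpn, so that every pig of 28 dpn lay above every newborn. The rise was 3.55 in period II (SE 0.30, q = 2.41e-12) and 0.91 in period III (SE 0.31, q = 0.00473). With signals below the array median set to that median, the period II difference was 0.08 and was not called. The probe-set also failed a filter at the 60th percentile of the array. The size of this rise thus rests on dim newborn signals. That floor was itself lower at 28 dpn (118.0, against 150.4 at 1 dpn), which shrinks the floored difference. The lost call therefore cannot be laid to dim signals alone. Signal exceeded the array median in 0 of 14 newborns and 11 of 15 pigs of 28 dpn. In period III the difference with that floor was 0.50 and was still called. Ssc.9365.5.S1_at and Ssc.9365.5.A1_at passed the filter in no period, with means from 5.55 to 6.43.

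**Figure D2:**
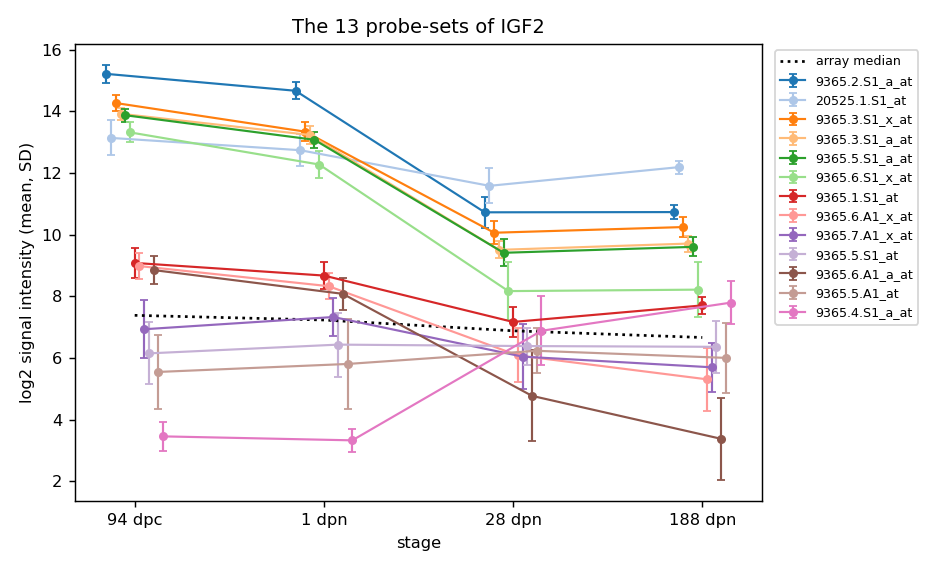
Mean log2 signal intensity with SD of each of the 13 probe-sets of IGF2 at the 4 stages (n = 16, 14, 15 and 16), labelled without the prefix Ssc., with the array median dotted. The 5 brightest probe-sets of cluster 9365 fell together between 1 and 28 dpn, while 20525.1.S1_at fell less and 9365.4.S1_a_at rose from far below the array median.

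GHR encodes the growth hormone receptor and had 1 probe-set, Ssc.16225.1.S1_at. Its lowest, median and highest values were 2.49, 4.20 and 7.03 at 94 dpc and 6.33, 7.77 and 8.98 at 1 dpn. They were 8.10, 8.84 and 9.46 at 28 dpn and 7.45, 9.27 and 9.78 at 188 dpn. Signal exceeded the array median in 0 of 16 fetuses, 13 of 14 newborns and all older pigs. Among the fetuses, 3 lay at 6.84, 6.99 and 7.03, within the newborn range, and the other 13 lay at or below 5.02. GHR rose by 3.19 in period I (SE 0.36, q = 7.97e-10), a 9.15-fold increase, and by 1.02 in period II (SE 0.18, q = 2.80e-06). With fetal signals raised to the array median the period I rise was 0.50 (q = 0.000124), so its size, unlike its direction, depended on dim fetal signals, and GHR failed a filter at the 60th percentile of the array. In period III the difference was 0.17 (SE 0.19, P = 0.378, 95% interval -0.21 to 0.55), and it was called at 0.39 when the arrays with an outlying control gene were left out. The values of 94 dpc did not overlap those of 28 or 188 dpn, and the order of the means was 94 dpc (4.63), 1 dpn (7.82), 28 dpn (8.84) and 188 dpn (9.01), of which the last pair did not differ beyond its spread.

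IGFBP2 encodes a binding protein that is abundant in fetal plasma, and it had 1 probe-set, Ssc.47.1.S1_at. The lowest, median and highest values were 12.67, 13.60 and 14.45 at 94 dpc, and 11.63, 12.39 and 13.50 at 1 dpn. They were 10.90, 12.20 and 13.73 at 28 dpn and 11.21, 12.23 and 12.94 at 188 dpn. The fetal values were high in the main, and the 3 later stages lay over each other. IGFBP2 fell by 1.05 in period I (SE 0.17, q = 6.34e-07), a 2.07-fold decrease. The differences of -0.21 in period II (SE 0.24, P = 0.402, 95% interval -0.70 to 0.29) and -0.11 in period III (SE 0.22, P = 0.618, interval -0.57 to 0.34) were not called, and their sign turned to 0.14 and 0.05 when the array median was subtracted. The spread between animals was 0.82 (SD) at 28 dpn and 0.43 to 0.50 at the other stages.

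In whole liver, fewer cells of a type and less RNA per cell cannot be told apart. Erythroid markers such as HBB and ALAS2, of which 6 of 12 were measured, summed to 2695 to 27163 in signal (median 12077) at 94 dpc and 1067 to 4047 (median 2256) at 1 dpn, and 5 of the 6 fell in period I together with IGF2 and IGFBP2. Kupffer cell markers, of which 6 of 10 were measured, summed to 14506 to 29944 at 1 dpn and 35238 to 56150 at 28 dpn, with 4 of the 6 higher in period II together with IGF1. Lymphocyte markers, of which 7 of 10 were measured, summed to 200 to 563 at 1 dpn and 780 to 4751 at 28 dpn, with 4 of 4 tested higher. At 1 dpn 6 of the 7 lay below the array median on every array, against 1 at 28 dpn. Those of the 6 that were tested passed the filter only through 28 dpn, which favoured a rise in advance. No marker was at 0, and the part of these cells in the changes of the axis was not tested. Hepatocyte markers summed to a median of 549100 at 1 dpn and 406927 at 28 dpn, with 7 of 8 tested lower in period II, when IGF1 and GHR rose. The 3' minus 5' difference of beta-actin, a measure of RNA quality, averaged 2.27, 1.78, 3.94 and 4.03 (log2) in order of age and so widened in period II. That of GAPDH averaged 1.05, 0.39, 0.79 and 0.64, so it narrowed in period I and widened in period II. That of EF1A averaged -0.02, -0.14, 0.39 and 0.56. The part of RNA quality in the changes of any period was not tested.

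Levels of different member genes were related within each stage over the animals, by Pearson and Spearman correlation with permutation tests of 100000 resamples, two-sided, for the 24 relations of 6 pairs of genes and 4 stages. After Benjamini-Hochberg adjustment over the 24, 4 held by Pearson and 1 by Spearman. Of these, 3 were among the 15 pigs of 28 dpn. IGF1 and GHR correlated at r = 0.69 (permutation p = 0.00441, adjusted 0.0265, rho = 0.68, adjusted 0.0563), and pigs with a high IGF1 level tended to a high GHR level. Without the 2 pigs farthest from the IGF1 median r was 0.52 (permutation p = 0.0683). Leaving out extreme values narrows the range and tends to lower r by itself, so whether its passing rests on those pigs cannot be told. IGFBP2 was low where IGF1 was high, at r = -0.72 (permutation p = 0.00241, adjusted 0.0234, rho = -0.70, adjusted 0.0563), and at r = -0.59 (permutation p = 0.0351) without the 2 farthest pigs. IGFBP2 was also low where GHR was high, at r = -0.71 (permutation p = 0.00293, adjusted 0.0234, rho = -0.57, adjusted 0.0926), and at -0.48 (permutation p = 0.0982) without the 2 farthest. An alternative chosen after seeing the data left out the arrays with an outlying control gene, and 13 pigs of 28 dpn remained. There GHR and IGFBP2 correlated at r = -0.87 (adjusted 0.00312), and at -0.76 (permutation p = 0.00656) without the 2 farthest of the 13. Because these 13 were chosen after seeing the data, they cannot settle whether the relation in all 15 rests on 2 pigs. Among the same 13, IGF1 and IGFBP2 correlated at -0.76 (adjusted 0.021), and IGF1 and GHR at 0.72 (adjusted 0.0351), or 0.53 (permutation p = 0.0965) without the 2 farthest.

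At the other stages none of these 3 pairs passed the adjustment. IGF1 and GHR correlated at r = 0.27, 0.22 and -0.21 at 94 dpc, 1 dpn and 188 dpn, IGF1 and IGFBP2 at -0.13, -0.01 and -0.47, and GHR and IGFBP2 at 0.32, -0.48 and 0.46. Whether the correlation at 28 dpn differed from that at another stage was not tested. IGF1, GHR and IGFBP2 correlated with the array median at r = 0.21, 0.53 and -0.41 at 28 dpn, and subtracting that median left 0.69, -0.67 and -0.69 for the 3 pairs, all still below 0.05 after adjustment (0.0362). Quantile normalization gave 0.66, -0.68 and -0.64 with an adjusted p of 0.0559 each, so no relation passed there.

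**Figure D3:**
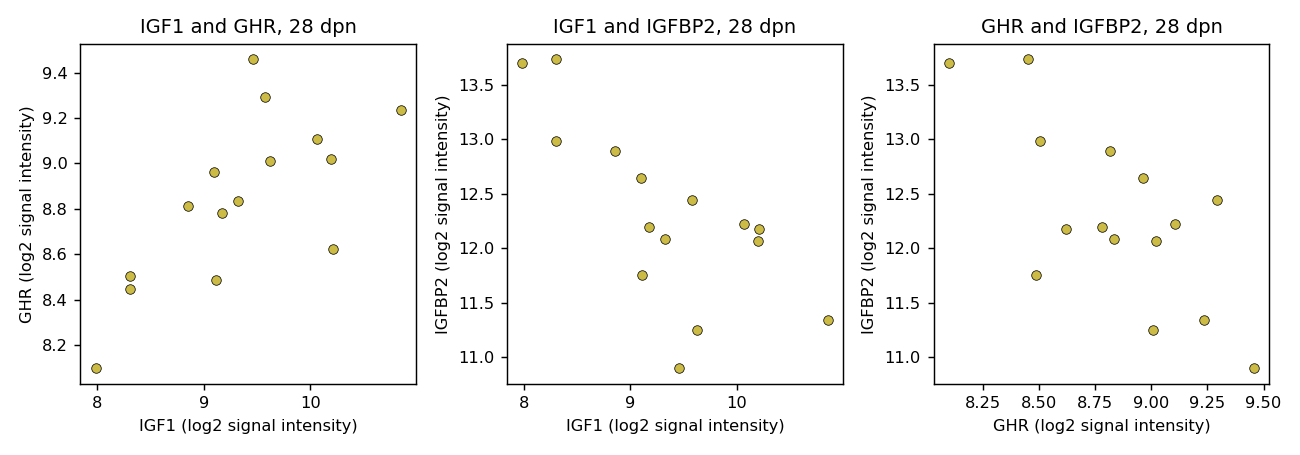
Log2 signal intensity of IGF1, GHR and IGFBP2 in the 15 pigs of 28 dpn, with 1 point per pig and a pair of genes per panel. IGF1 and GHR rose together across pigs (r = 0.69), while IGFBP2 was lower in pigs with more IGF1 (r = -0.72) or more GHR (r = -0.71).

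The remaining relation joined IGF2 and IGFBP2, which both fell in period I. At 94 dpc they correlated at r = 0.80 (permutation p = 0.0002, adjusted 0.0048) and rho = 0.80 (adjusted 0.00696), and at r = 0.76 (permutation p = 0.00147) without the 2 farthest fetuses. The same pair correlated at r = 0.61, 0.51 and 0.57 at 1, 28 and 188 dpn, with adjusted p of 0.0794, 0.158 and 0.0794. Fetuses with a high IGF2 level thus had a high IGFBP2 level, and the later correlations had the same sign but did not pass. IGF2 correlated with the array median at r = 0.48 in the fetuses, and after subtraction of that median the fetal correlation was 0.80 (adjusted 0.00648), against 0.67 (adjusted 0.0559) after quantile normalization. Pairs of IGF2 with IGF1 or GHR did not pass at any stage.

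Beyond the members, 51 other genes of the axis were listed and 34 had a probe-set of their own symbol, each represented by the brightest. In period I, 20 were tested, of which 5 rose and 5 fell (median change -0.09), beside the 26.1% and 41.6% of all probe-sets tested. In period II, 20 were tested, of which 8 rose and 6 fell (0.19), beside 29.0% and 41.4%. In period III 19 were tested, of which 7 rose and 4 fell (0.05), beside 18.3% and 35.7%. Several of the smaller falls depended on the scaling. Of the 10, 14 and 11 genes called, 9, 11 and 8 were still called in the same direction after quantile normalization, and 8, 10 and 7 after subtraction of the array median. The calls lost under either scaling were all falls, those of PDPK1 and FOXO1 in period I, IGF1R, MMP2, GRB10 and SHC1 in period II, and STAT5A, SOCS1, PTPN1 and GRB2 in period III, and GRB10 turned from -0.30 to 0.05 after subtraction of the array median. Calls gained numbered 2, 3 and 0 after quantile normalization and 2, 7 and 2 after that subtraction, among them STAT5B and PTPN1 in period I and IGFBP6, SOCS1 and PDPK1 in period II under both. With the subtraction, 7, 15 and 9 genes rose and 3, 2 and 0 fell in the 3 periods, against 7, 11 and 7 that rose and 4, 3 and 1 that fell after quantile normalization. Growth hormone itself (GH1), insulin (INS) and the prolactin receptor (PRLR) were too dim to be tested in any period.

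Among the receptors, IGF2R, which takes up IGF2 for degradation, fell by 1.60 in period II (SE 0.22, q = 3.82e-08), from 8.07 to 6.47. IGF1R, through which both IGFs signal, gave different answers by probe-set. Ssc.16058.1.S1_at rose by 0.61 in period I (SE 0.24, q = 0.00588), or by 0.23 with the array median as floor, and fell by 0.51 in period II (SE 0.15, q = 0.000682), whereas Ssc.19009.1.S1_at fell by 0.59 in period I (SE 0.13, q = 3.79e-05) and had means of 7.00 at 1 dpn and 5.48 at 28 dpn, where it was not tested.

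Among the carriers, IGFALS, which encodes the acid-labile subunit that holds IGF1 in its large plasma complex, went up with IGF1 in period II. At 94 dpc its mean was 6.32 ± 0.94 (SD, n = 16), above that of 1 dpn, and the period I difference was not tested. In period III its rise was called, whereas that of IGF1 was not. Its mean was 5.52 ± 1.23 (SD, n = 14) at 1 dpn, 7.70 ± 0.64 (n = 15) at 28 dpn and 8.50 ± 0.43 (n = 16) at 188 dpn, with rises of 2.17 in period II (SE 0.34, q = 3.60e-07) and 0.80 in period III (SE 0.19, q = 0.000235). It exceeded the array median in 3 of 14 newborns, and with the array median as floor the period II rise was 0.42 (q = 0.00178), so its size rests on dim newborn signals. IGFBP1, a binding protein that insulin represses, fell by 0.84 in period I (SE 0.25, q = 0.000704) and by 1.36 in period II (SE 0.32, q = 6.91e-05), and rose by 0.86 in period III (SE 0.33, q = 0.00846). IGFBP1 thus fell in both early periods, whereas IGFBP2 fell in period I and differed by -0.21 in period II. IGFBP6 rose by 0.57 in period III (SE 0.23, q = 0.0108), or by 0.32 with that floor. The protease HTRA1, which cleaves binding proteins, fell by 0.67 in period I (SE 0.14, q = 1.59e-05) and rose by 1.25 in period II (SE 0.14, q = 1.24e-09).

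Below the growth hormone receptor, the tyrosine kinase JAK2 fell by 1.08 in period I (SE 0.31, q = 0.000686), or by 0.33 with the array median as floor, when GHR rose, and was too dim to be tested later. It exceeded that median in 8 of 16 fetuses and 0 of 14 newborns, so it was tested only through the stage where it was high. The stage medians were 7.38 and 6.66, and the drop of the floor adds to the floored fall. Its probe-set Ssc.324.3.S1_a_at, with means of 6.29 and 5.98, exceeded the array median in 0 animals of either stage. STAT5A rose by 0.96 in period II (SE 0.23, q = 0.000105) and fell by 0.28 in period III (SE 0.10, q = 0.00707), and STAT5B had differences of 0.09 and -0.20 there that were not called, although the first was called at 0.44 (q = 0.000149) after subtraction of the array median. STAT5A and STAT5B are close in sequence, so probes may share signal. STAT3 rose by 1.67 in period I (SE 0.11, q = 1.75e-14) and by 0.52 in period III (SE 0.11, q = 6.66e-05). The phosphatase PTPN1, which acts on JAK2, rose by 0.56 in period II (SE 0.10, q = 2.04e-06) and fell by 0.33 in period III (SE 0.09, q = 0.000871). The inhibitor SOCS1 fell by 0.27 in period III (SE 0.13, q = 0.0237).

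Below the IGF receptor, the adaptor GRB2 rose at its brightest probe-set by 1.09 in period I (SE 0.12, q = 5.32e-10) and by 0.47 in period II (SE 0.10, q = 4.03e-05). Its probe-set Ssc.29818.1.A1_at went the other way in period I, with means of 8.66 ± 0.23 (SD, n = 16) at 94 dpc and 7.96 ± 0.33 (n = 14) at 1 dpn. That probe-set exceeded the array median in all animals of both stages. The kinase AKT1 rose by 0.70 in period I (SE 0.10, q = 1.20e-07), and AKT2 by 0.59 in period II (SE 0.10, q = 2.02e-06) and 0.32 in period III (SE 0.10, q = 0.00305). The transcription factor FOXO1, which AKT restrains, fell by 0.34 in period I (SE 0.13, q = 0.00408).

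**Figure D4:**
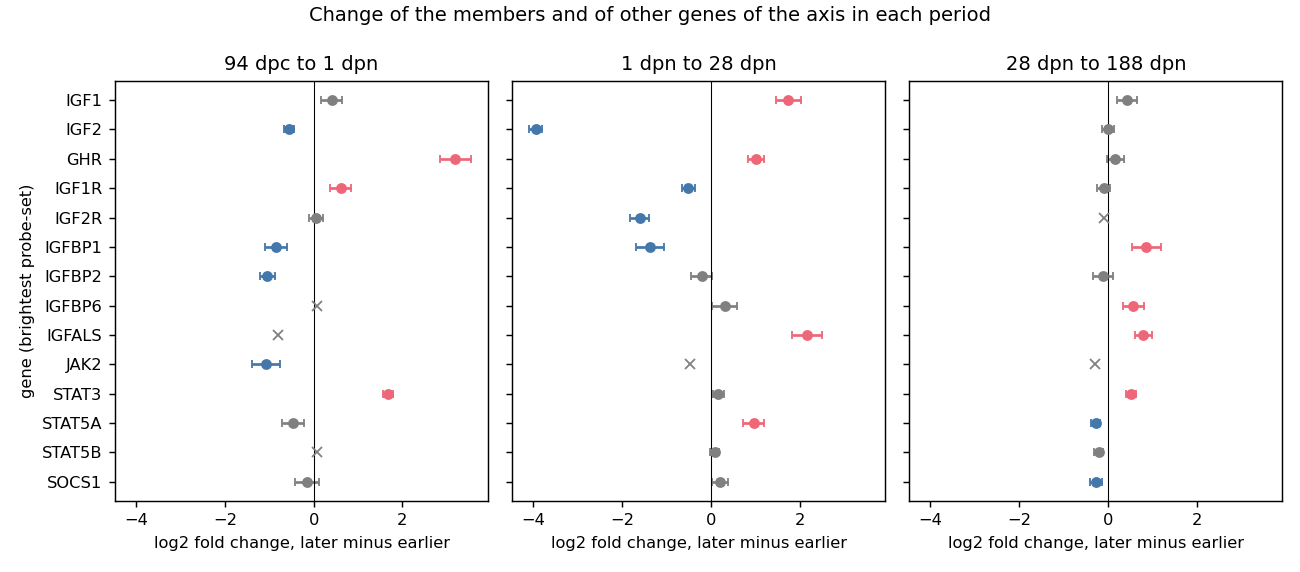
Log2 fold change of the later minus the earlier stage in periods I, II and III, with SE, for the brightest probe-set of IGF1, IGF2, GHR, IGFBP2 and other genes of the axis, called higher in red, called lower in blue, tested and not called in grey, and not tested as a cross. IGF2 (-3.94) fell and IGFALS (2.17) and IGF1 (1.75) rose in period II, and GHR (3.19) rose in period I, where the bars of GHR and IGFALS start from signals mostly below the array median and are 0.50 and 0.42 with that median as floor.

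For the brightest probe-set of each member, the 5 genes most like it were taken by Pearson r of log2 signal over the 61 arrays, among 7372 probe-sets of other genes. Since all arrays of a stage share its age, r mainly reflects the order of the stages. S100G (0.97), PEG10 (0.96), RPL22L1 (0.96), MAGED1 (0.96) and TMED3 (0.96) were most like IGF2, with within-stage r of -0.07 to 0.40. RNF114, PSAP, FOLR2 and POLR2B (0.88 each) and HIST1H2BD (0.87) were most like IGF1, with within-stage r of 0.29 to 0.54. CYP3A39, C4A, HSD11B1 and CYP2C49 (0.90 each) and PREP (0.89) were most like GHR, and KARS (0.76), EEF1G, APOM and RPL13 (0.75 each) and RPL6 (0.74) most like IGFBP2.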

How the data were processed

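The deposited signal intensity was computed by the authors for every probe-set of an array, on a linear scale with a common trimmed mean (500.127 to 500.229 over the arrays). GCOS 1.1.1 is the tool in the processing notes of the submitters. GC-RMA values and detection calls, which the study describes, were not used here. The labels give no sex, mother or weight. Of the 24123 probe-sets, 124 were controls, 10069 carried 1 symbol, 198 several and 13732 none.

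Signals were taken to log2, the brightest probe-set having the highest mean over all arrays. A probe-set was tested between 2 stages when its signal lay over the median of the array for 50% or more of the animals in 1 stage and its SD was above 0.25. Stages were compared two-sided with limma 3.58.1 in R 4.3.3 (statmod 1.5.0), with stage as the only term and later minus earlier, q after Storey and Tibshirani, and 12 alternatives. The fit was tested on simulated data. Correlations were computed with numpy 2.4.6 in Python 3.11.15, and figures with matplotlib 3.10.9. All member probe-sets are shown. Other axis genes were named from those called with the largest change in their list or for their role. The members and gene lists were chosen with earlier results of these data known. Adjacent periods share the animals of a stage. The number of arrays limits the precision, and detection above background was not available for single signals.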

Additional observations from a re-analysis of the deposited data

How the results depend on the processing

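Over the 12 alternatives, the 40 changes tested in periods I to III kept direction and call in 448 cases, gained the call in 19, lost it in 10 and changed sign in 3. In period I, IGF1 was called after quantile normalization (0.58), subtraction of the array median (0.56) and array weights (0.41), IGF2 lost its call after quantile normalization (-0.22), and GHR (3.19) failed the filter at the 60th percentile. Members that rose in period I numbered 2 after quantile normalization, array median subtraction, array weights or without the intensity filter, and 0 with the 60th percentile. In period II, IGFBP2 changed sign with the array median subtracted (0.14). In period III, IGF1 was called after quantile normalization (0.46), array median subtraction (0.59), array weights (0.47) and without the outlying arrays (0.54), GHR without the outlying arrays (0.39), IGFBP2 changed sign with the array median subtracted (0.047), and Ssc.9365.6.S1_x_at of IGF2 with the array median as floor (-0.010). Members that rose in period III numbered 6 after quantile normalization, 7 after array median subtraction, 5 with array weights and 7 without the outlying arrays, and 1 fell without the intensity filter. Over longer spans, Ssc.9365.4.S1_a_at of IGF2 changed sign between 94 dpc and 28 dpn with the floor (-0.062), where the floor itself fell from 167 to 118. IGFBP2 changed sign between 1 and 188 dpn with the array median subtracted (0.19). With that subtraction Ssc.20525.1.S1_at of IGF2 lost its calls from 94 dpc to 188 dpn (-0.30) and from 1 to 188 dpn (-0.04). After quantile normalization no relation passed: IGF1 and GHR 0.66, IGF1 and IGFBP2 -0.68, GHR and IGFBP2 -0.64 at 28 dpn, and IGF2 and IGFBP2 0.67 at 94 dpc. With the other tested probe-set of IGF1, an alternative chosen after seeing the data, IGF1 and GHR correlated at 0.57 (adjusted 0.109). The causes were not tested. No paired analysis was possible because the animal numbers of the stages do not repeat. Siblings were not modelled, and dim signals set the size of several changes. Groups were searched for outlying arrays by the 3' to 5' differences of control genes, not by the levels of the members.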

Other observations

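IGF2 is imprinted, and 6 of 10 other imprinted genes listed had a probe-set. In period I, 5 were tested, of which 4 fell and 1 rose, in period II 4 of 4 fell, and in period III 2 of 2 fell, where 41.6%, 41.4% and 35.7% of all probe-sets tested fell. PEG10 had means of 15.24, 13.51, 7.32 and 5.58 in order of age, with changes of -1.73 (SE 0.19, q = 6.22e-10), -6.19 (SE 0.28, q = 1.68e-18) and -1.75 (SE 0.30, q = 4.53e-06) in the 3 periods, the last -0.76 with the array median as floor. PEG3 fell by 2.33 in period I (SE 0.19, q = 8.96e-13) and by 2.35 in period II (SE 0.34, q = 1.11e-07), where it was -0.63 with that floor. NNAT rose by 1.81 in period I (SE 0.39, q = 3.26e-05) and fell by 1.69 in period II (SE 0.29, q = 1.70e-06), with 0.70 and -1.11 under that floor. NDN fell by 0.32 in period III (SE 0.14, q = 0.0155), where the brightest probe-set of IGF2 differed by 0.01, and was not called after quantile normalization (-0.15) or subtraction of the array median (-0.16).

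Of 11 liver transcription factors listed, 7 had a probe-set. In period I, 6 were tested, of which 4 rose and 2 fell, in period II 1 of 7 rose and 3 fell, and in period III 1 of 6 rose and 1 fell, beside 26.1% and 41.6%, 29.0% and 41.4%, and 18.3% and 35.7% of all probe-sets tested. In period II these counts depended on the scaling, with 2 higher and 2 lower after quantile normalization and 4 higher (HNF4A, FOXA2, CEBPA and CEBPB) and 2 lower (FOXA1 and PPARA) after subtraction of the array median. In periods I and III they were 3 and 1, and 1 and 0, after quantile normalization, and 5 and 0, and 1 and 0, after the subtraction. PPARA, a regulator of fatty acid oxidation, changed by 3.79 in period I (SE 0.28, q = 1.26e-13) and by -2.01 in period II (SE 0.25, q = 9.36e-09), with means of 3.58, 7.37 and 5.36 at 94 dpc, 1 dpn and 28 dpn. It exceeded the array median in 0 fetuses and 10 of 14 newborns, and with that median as floor its changes were 0.09, not tested, and -0.58. HNF4A, a regulator of many hepatocyte genes, rose by 0.72 in period II (SE 0.09, q = 1.16e-08). CEBPA rose by 0.58 in period I (SE 0.14, q = 0.00013). The glucocorticoid receptor NR3C1 fell by 0.38 in period I (SE 0.14, q = 0.00423) and by 0.52 in period II (SE 0.15, q = 0.000599). Both falls of NR3C1 lost their call after quantile normalization (-0.22 and -0.28) and after subtraction of the array median (-0.23 and -0.18), as did the fall of FOXA1 in period III (-0.23, then -0.11 and -0.07). CEBPB, which rose by 0.48 in period I, was not called after quantile normalization (0.40), nor FOXA2, which fell by 0.34 there, after subtraction of the array median (-0.19).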
